A study of Mus musculus with 33 samples.

Results

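Uhrf1 was mapped in wild-type mouse embryonic stem cells as a list of enriched windows of 10 kb, and a small share of these windows touched a domain of the histone mark H3K4me3 in the same cells. Windows were chosen by one rule, an overlap of at least 1 bp between a window of the WT mESC Uhrf1 list and a domain of the WT mESC H3K4me3 list. The rule took 552 of 13644 windows (4.05%), and the other 13092 served for comparison. Since the members were selected on these measured lists, their Uhrf1 enrichment and their WT mESC H3K4me3 are descriptions and not findings.

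All cells were of the E14 mouse embryonic stem cell (mESC) line, either wild type (WT) or Uhrf1 knockout (KO), as the labels name them. Both were obtained from one source group, and the number of KO clones is not given in the sources used here. Cells were kept on gelatin or on plates coated with mouse embryonic fibroblasts. Embryoid bodies (EBs), which are clumps of differentiating cells, were grown from both genotypes by hanging drop and taken at weeks 1, 2 and 3. The ChIP-seq lists covered H3K4me3 and H3K27me3 in mESC and in EBs of every week for both genotypes, H3K9me3, Oct4, Sox2 and Nanog in mESC of both genotypes, and Uhrf1 in WT mESC alone. Of 33 samples, 25 had a list, and the 8 inputs were not analysed here. Each group was 1 library, so no spread between replicates exists and no p-value is given. Intervals are 95% intervals that cover counting error over windows, domains or genes, and neighbouring windows are not independent. A list records where a region was called, and depth per library was not used here. An EB holds many cell types, so fewer cells carrying a mark and less of the mark per cell cannot be told apart.

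The promoters of Pou5f1 (which encodes Oct4), Sox2 and Nanog, the core factors of pluripotency, carried H3K4me3 in both mESC lists. The Sox2 promoter carried it in every EB list too, and those of Pou5f1 and Nanog in both genotypes at weeks 2 and 3. These promoters therefore do not tell mESC lists from EB lists. H3K27me3 was also listed near the Pou5f1 and Sox2 starts in WT mESC, though not in KO mESC. The Uhrf1 promoter carried H3K4me3 in all 8 H3K4me3 lists, the KO lists included, and with Uhrf1 mapped in WT alone no list checked the knockout itself.

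Uhrf1 binds hemimethylated CpG through its SRA domain and methylated H3K9 through its tandem Tudor domain, and it brings the maintenance methyltransferase Dnmt1 to replicating DNA. H3K4me3 is laid down by Set1 and MLL complexes, mostly at CpG-rich promoters that lack DNA methylation, and it is the mark of promoters open to transcription. H3K27me3 is the mark of Polycomb repression, and a promoter with both marks is called bivalent. H3K9me3 is the mark of heterochromatin and of silenced repeats. A window with Uhrf1 and H3K4me3 thus joined a reader of methylated DNA and H3K9me3 with a mark that usually lies elsewhere. The paper reports, however, that Uhrf1 also binds Setd1a, the enzyme of a Set1 complex, and promotes H3K4me3. It also reports Uhrf1 enrichment around bivalent and repressive loci.

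Sequences of a few members are printed from the NCBIM37 (mm9) genome. They do not stand for all 552, of which 100 held a WT Oct4 summit and 54 a protein-coding start under H3K4me3. The first set holds 200 bases around 2 of the tallest WT Oct4 summits found in members. The peaks lay over DNA that the 2 windows share, outside the WT mESC H3K4me3 domain of either window. Neither held the octamer ATGCAAAT, the core of the Oct4 motif, on either strand. It was found at only 10.2% of all WT Oct4 summits. Capitals mark an identical stretch of 67 bases. Both are plus-strand sequences in introns of non-coding genes.
First chromosome 4 window, chr4:146350905-146351104: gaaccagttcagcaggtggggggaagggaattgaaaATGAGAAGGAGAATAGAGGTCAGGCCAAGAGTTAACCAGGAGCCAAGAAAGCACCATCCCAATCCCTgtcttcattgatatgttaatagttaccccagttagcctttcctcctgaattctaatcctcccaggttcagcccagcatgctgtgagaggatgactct
Second chromosome 4 window, chr4:146685736-146685935: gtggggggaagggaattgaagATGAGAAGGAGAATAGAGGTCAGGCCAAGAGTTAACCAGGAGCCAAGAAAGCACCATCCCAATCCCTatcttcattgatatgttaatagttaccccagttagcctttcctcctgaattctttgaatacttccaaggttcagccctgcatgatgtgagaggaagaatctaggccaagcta

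The second set holds the 250 bases before the annotated start of 6 protein-coding genes whose start lay under H3K4me3 in a member, with each CpG dinucleotide in capitals. Ifi203, Olfr331 and Tex24 had no H3K4me3 domain over that stretch in the KO mESC list, whereas B3galt4, Bola1 and Raet1c had one in all 7 other H3K4me3 lists. Each is written on the strand of its gene. The first 3 held 1, 1 and 0 CpG, and the last 3 held 14, 9 and 7. Over all 22380 protein-coding genes the median was 8.
Ifi203, chr1:175872804-175873053, minus strand: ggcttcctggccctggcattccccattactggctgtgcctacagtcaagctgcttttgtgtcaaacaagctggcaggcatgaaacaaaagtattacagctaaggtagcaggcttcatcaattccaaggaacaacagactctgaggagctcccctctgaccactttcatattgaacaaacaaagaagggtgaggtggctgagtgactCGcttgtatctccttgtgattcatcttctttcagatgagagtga
Olfr331, chr11:58323594-58323843, minus strand: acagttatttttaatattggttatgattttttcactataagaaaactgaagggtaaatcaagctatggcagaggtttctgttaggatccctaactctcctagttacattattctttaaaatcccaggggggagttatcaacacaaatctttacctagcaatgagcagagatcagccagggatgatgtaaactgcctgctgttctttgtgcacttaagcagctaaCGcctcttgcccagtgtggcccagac
Tex24, chr8:28454616-28454865, plus strand: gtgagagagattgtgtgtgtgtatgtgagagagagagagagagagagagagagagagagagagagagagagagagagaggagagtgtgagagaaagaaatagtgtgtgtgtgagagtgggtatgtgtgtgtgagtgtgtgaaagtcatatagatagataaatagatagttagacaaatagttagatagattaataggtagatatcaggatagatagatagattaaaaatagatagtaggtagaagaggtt
B3galt4, chr17:34088434-34088683, minus strand: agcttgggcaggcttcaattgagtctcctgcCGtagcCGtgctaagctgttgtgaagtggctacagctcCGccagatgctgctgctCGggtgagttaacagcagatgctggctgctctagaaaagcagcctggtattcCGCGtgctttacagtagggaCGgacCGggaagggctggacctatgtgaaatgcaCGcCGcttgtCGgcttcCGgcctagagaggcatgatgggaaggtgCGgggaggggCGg
Bola1, chr3:96002413-96002662, minus strand: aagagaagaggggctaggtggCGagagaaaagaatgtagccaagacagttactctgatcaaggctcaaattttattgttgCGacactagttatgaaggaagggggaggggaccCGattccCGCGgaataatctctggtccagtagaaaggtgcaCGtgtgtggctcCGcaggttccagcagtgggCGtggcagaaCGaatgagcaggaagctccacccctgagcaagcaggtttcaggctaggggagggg
Raet1c, chr10:21893077-21893326, plus strand: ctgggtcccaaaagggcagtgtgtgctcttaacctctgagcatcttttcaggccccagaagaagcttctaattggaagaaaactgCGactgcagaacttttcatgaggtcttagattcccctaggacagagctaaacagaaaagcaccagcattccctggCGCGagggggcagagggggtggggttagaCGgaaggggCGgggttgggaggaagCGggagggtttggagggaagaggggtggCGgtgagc

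The H3K4me3 stretch of a member, meaning the bases of the window under the WT mESC domain, ranged from 100 to 10000 bp with a median of 6500 bp. In 168 members (30.4%) the domain covered the whole window, and in 41 under 1000 bp was covered. Every member touched exactly 1 domain, and together they touched 453 of 15272. In 79 members a domain lay wholly inside the window. Just inside the rule stood 4 windows with 100 bp covered, among them chr3:52930001-52940000 in an intron of Lhfp, chr3:94530001-94540000 in an intron of Cgn and chr17:17310001-17320000 between genes. Just outside stood 4 windows that abutted a domain with a gap of 0 bp, among them chr15:81370001-81380000, chr17:5850001-5860000 and chr5:83070001-83080000. Most other windows were far from H3K4me3, with a median gap of 260.5 kb, and 51 lay within 1 kb.

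Members were spread thinly over the autosomes with a few dense patches. They fell in 462 of 9028 runs of adjacent Uhrf1 windows, and 401 of these runs held a single member. Chromosome 13 held 59 members, chromosome 11 47, chromosome 8 45 and chromosome 4 43. On chromosome 11 they were 16.7% of its 281 Uhrf1 windows, the highest share of these 4 chromosomes. Chromosome X held 2130 Uhrf1 windows, of which 10 were members (0.470%), and chromosome Y held 65, of which none was. The X share was 1.81% of members and 16.2% of other windows, a difference of -14.4 percentage points (-15.4 to -12.8). Seen from the domains, 1.99% of those touched by Uhrf1 and 2.82% of the others were on X (difference -0.834 points, -1.81 to 0.930), an interval that includes 0.

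Counted in bins of 1 Mb, a description made after the data were seen, 7 of the 369 bins with a member held 5 or more, and those 7 held 70 members. The densest was chromosome 4 at 146 to 147 Mb, with 15 members among 66 Uhrf1 windows. It was followed by chromosome 13 at 13 to 14 Mb and at 62 to 63 Mb, with 12 members each. The run with most members, chr13:13000001-13120000, had 6 among 12 windows and the start of Prl2c2, a proliferin gene of the prolactin family. Its neighbour chr13:12820001-12920000 had 4 among 10 windows and the start of the related Prl2c3. In chr13:62240001-62280000 all 4 windows were members and lay in the body of Zfp808, a zinc finger gene. At chr5:15140001-15220000 4 of 8 windows were members, beside 4930572O03Rik, Speer4c and the pseudogene Speer7-ps1 of the testis-expressed Speer family. The locus chr11:3060001-3090000, 3 members of 3 windows in the bodies of Drg1 and Sfi1, held 8 KO Oct4 and 9 WT Nanog summits. In the first 4 loci a median of 60% to 80% of sampled 32-base words occurred more than once in the genome, and with 1 alignment kept per read the reads of one copy can be counted at another.

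Gene starts were more frequent in members than in other Uhrf1 windows. A protein-coding start lay in 65 members (11.8%, interval 9.35 to 14.7) and in 708 other windows (5.41%), a difference of 6.37 points (3.91 to 9.35). A start of any annotated gene lay in 20.8% of members and 11.1% of other windows, and a pseudogene start in 6.16% and 3.92%. Protein-coding gene bodies overlapped 42.8% of members, 16.8 points more than of other windows (12.6 to 21.0). Even so, 437 members held no gene start of any kind. Compared with other H3K4me3 domains the touched ones were poor in starts, with a protein-coding start in 41.9% against 61.1% (difference -19.2 points, -23.7 to -14.5).

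The members held the starts of 73 protein-coding genes, 0.326% of all 22380, and few belonged to any listed family. Chemosensory receptors, the odorant and pheromone receptors expressed in sensory neurons, gave 8 of 1459 (Olfr239, Olfr330, Olfr331, Olfr371, Olfr474, Olfr55, Vmn1r174 and Vmn2r9). Zinc finger genes gave 5 of 401, namely Zfp229, Zfp236, Zfp738, Zfp828 and Zfp960. Developmental regulators, the classical bivalent genes, gave 1 of 244, Hoxd13, a homeobox gene of the distal limb. The list of DNA methylation genes gave 1 of 21, Uhrf2, the paralogue of Uhrf1. Imprinted genes gave Mest, 1 of 36, and clustered protocadherins gave Pcdhb5, 1 of 24. Germline genes (67), 2-cell genes (19), replication-dependent histones (67), keratins (97), defensins (53), X-linked multicopy testis genes (54), pluripotency genes (26), Setd1a and other COMPASS genes (12) and the genes picked by the study (12) gave 0. Germline genes had 12 starts and defensins 9 in Uhrf1 windows, all without H3K4me3. Of all protein-coding genes 838 had a start in a Uhrf1 window, and 73 of these starts lay in a member. Against that share, 0 of 12 or 0 of 9 is too small a count to set these families apart.

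H3K9me3 and H3K27me3, which the rule did not use, were far more frequent in members than in other Uhrf1 windows. A WT mESC H3K9me3 domain overlapped 438 members (79.3%, 75.8 to 82.5) against 47.2% of other windows, a difference of 32.2 points (28.5 to 35.4). A WT mESC H3K27me3 domain overlapped 376 (68.1%, 64.1 to 71.9) against 39.4%, a difference of 28.7 points (24.6 to 32.6). Both marks were found in 347 members (62.9% against 33.4%), H3K9me3 alone in 91, H3K27me3 alone in 29 and neither in 85 (15.4% against 46.8%). A member was thus usually a window where Uhrf1, H3K4me3, H3K9me3 and H3K27me3 were all called in the same cells, although bulk lists do not show whether the marks share a chromosome copy. Both WT mESC lists were broad, covering 987.6 Mb for H3K9me3 and 959.7 Mb for H3K27me3.

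**Figure D1:**
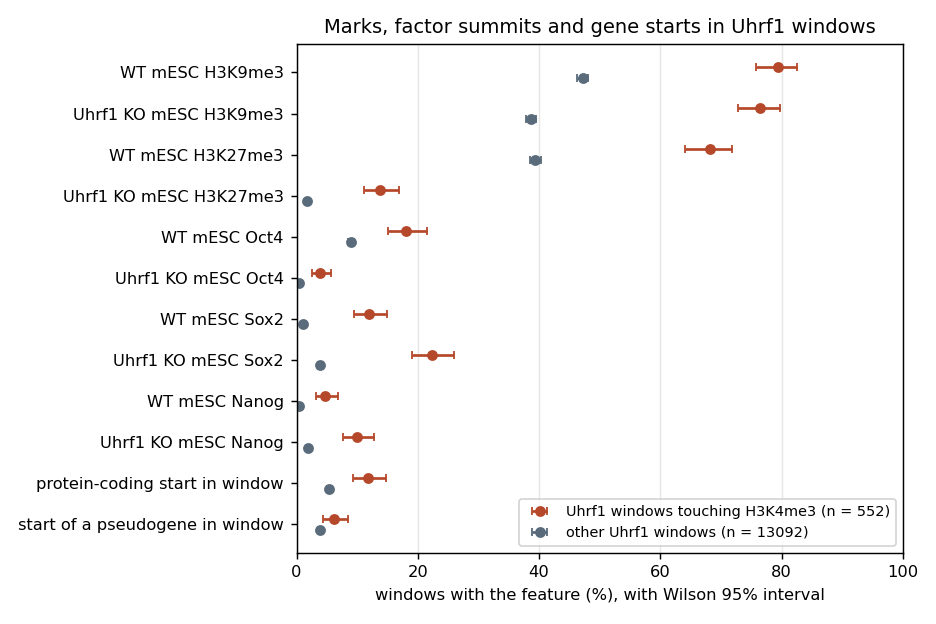
Share of Uhrf1 windows with each mark, factor summit or gene start (x axis, percent) in the 552 windows that touched H3K4me3 (red) and in the other 13092 (grey), with Wilson 95% intervals as bars. The red point lies to the right of the grey one for every feature shown, from WT mESC H3K9me3 (79.3% against 47.2%) to pseudogene starts (6.16% against 3.92%).

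The same held when touched H3K4me3 domains were set against the other domains. H3K9me3 overlapped 78.1% of touched domains and 27.6% of the others, where 29.1% of all 15272 domains did (difference 50.6 points, 46.5 to 54.2). H3K27me3 overlapped 67.8% and 34.8%, where 35.8% of all domains did (difference 32.9 points, 28.4 to 37.1). Both marks together overlapped 60.3% of touched domains and 15.1% of the others. In members with a protein-coding start H3K9me3 was found in 76.9% against 22.6% of other Uhrf1 windows with such a start, a difference of 54.3 points (42.3 to 63.4).

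The strength of these domains within their own list was also high. Domains were ranked by the mean read count per bin, and each window took the strongest domain over it. For WT H3K9me3 the median percentile was 79.3 over the members with a domain and 47.2 over the other Uhrf1 windows with one. The strongest domain was in the top 1% of the list for 12.8% of these members and 0.486% of these other windows. For WT H3K27me3 the median percentiles were 68.7 and 32.5. WT mESC H3K4me3 itself was weak over members, at a median percentile of 37.3, a value that belongs to the selection.

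In KO mESC, H3K9me3 was listed over 422 members (76.4%), near its WT share, while H3K27me3 was listed over 76 (13.8%). The KO mESC H3K27me3 list held 722 domains over 84.1 Mb, against 8161 over 959.7 Mb in WT, so its low share in members goes with a short list. Over other Uhrf1 windows the KO shares were 38.7% and 1.80%. The difference for KO H3K27me3 was 11.97 points (9.33 to 15.1).

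H3K4me3 over the members was next followed into KO cells and through differentiation. A member was called kept in a list when an H3K4me3 domain of that list shared at least 1 bp with the member's H3K4me3 stretch. In KO mESC 278 members were kept (50.4%, 46.2 to 54.5), where 73% of all WT mESC H3K4me3 domains were overlapped. At week 1, 200 were kept in WT EBs (36.2%) and 167 in KO EBs (30.3%), where 76.4% and 69.2% of all domains were overlapped. At week 2, 265 were kept in WT (48.0%) and 253 in KO (45.8%), beside 83.7% and 86.1% of all domains. At week 3, 261 were kept in WT (47.3%) and 287 in KO (52.0%), beside 86.1% and 88.9%. In every list the members lay below the share of all domains, though a stretch cut to 10 kb offers fewer bases to overlap than a whole domain.

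Whole domains were therefore compared. In KO mESC 60.04% of the 453 touched domains were overlapped, against 73.4% of the other 14819, a difference of -13.3 points (-18.0 to -8.86). In WT EBs the differences were -18.7 (-23.3 to -14.2), -18.9 (-23.5 to -14.7) and -18.4 points (-22.9 to -14.3) at weeks 1, 2 and 3. In KO EBs they were -15.3 (-20.0 to -10.8), -19.6 (-24.1 to -15.4) and -17.4 points (-21.8 to -13.5). Touched domains were thus kept less often in the 3 WT EB lists as well as in the 4 KO lists.

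The size of the difference depended on the domains compared. Among domains with a protein-coding start, 88.9% of 190 touched and 89.2% of 9054 others were overlapped in KO mESC, a difference of -0.262 points (-5.55 to 3.51). In the EB lists the differences among these domains ran from -0.671 to -3.16 points, and the intervals left out 0 in WT at week 2 (-7.12 to -0.276) and at week 3 in WT (-7.18 to -0.915) and KO (-5.84 to -0.196). In a domain with a start, that start could lie outside the Uhrf1 window. Members with a start inside their H3K4me3 stretch came from 50 domains only. Of these 54 members 35 (64.8%) were kept in KO mESC by the stretch rule. Among domains without a protein-coding start, the shares in KO mESC were 39.2% of 263 and 48.5% of 5765, a difference of -9.34 points (-15.2 to -3.19). When only domains with WT H3K9me3 and no protein-coding start were compared, a grouping chosen after the data were seen, the shares in KO mESC were 37.4% of 219 and 40.2% of 1857 (difference -2.73 points, -9.27 to 4.21). In that group the differences at week 1 were -4.92 points in WT (-11.1 to 1.84) and -2.57 in KO (-8.41 to 3.99). At week 2 they were -9.58 points in WT (-16.4 to -2.58) and -13.2 in KO (-20.0 to -6.19), and at week 3 -8.17 (-15.1 to -1.19) and -11.0 (-17.9 to -4.13). A grouping by WT H3K27me3 was not planned. With it, 52.8% of 307 touched and 64.8% of 5163 other domains were overlapped in KO mESC (difference -12.1 points, -17.8 to -6.39). Without it, the shares were 75.3% of 146 and 77.9% of 9656 (difference -2.60 points, -10.2 to 3.74). In the EB lists the differences ran from -18.7 to -25.4 points with it and from -6.54 to -12.6 without it. Only the KO week 1 interval without it included 0.

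**Figure D2:**
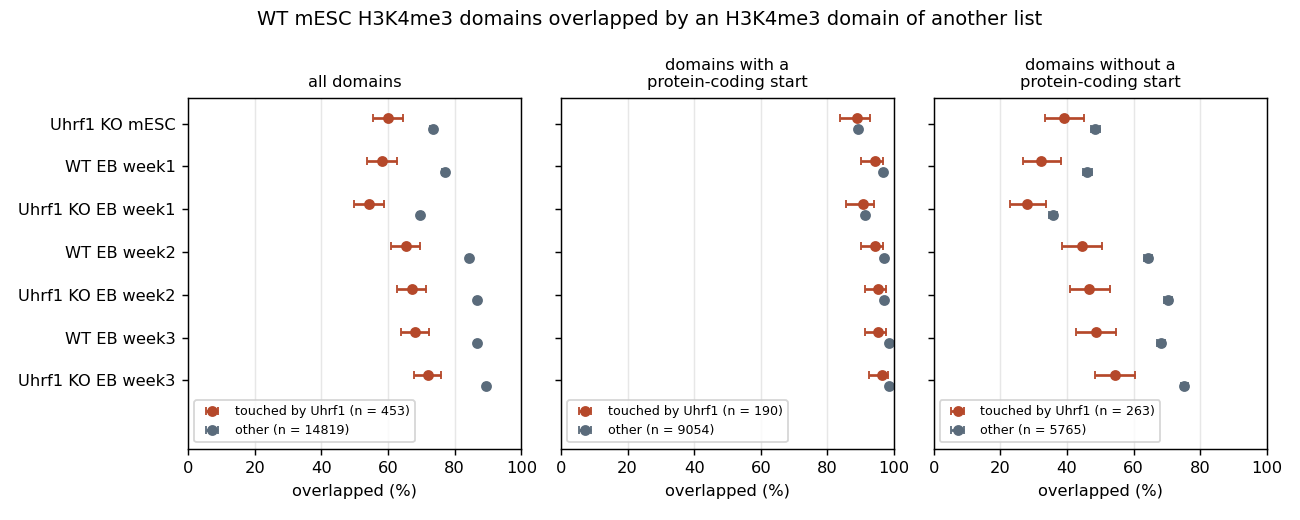
Share of WT mESC H3K4me3 domains overlapped by an H3K4me3 domain of each other list (x axis, percent), for domains touched by a Uhrf1 window (red) and other domains (grey), with Wilson 95% intervals, over all domains and split by a protein-coding start. Touched domains lie 13.3 to 19.6 points lower over all domains, 0.262 to 3.16 points lower among those with a start and 7.66 to 23.6 points lower among those without.

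Over the 7 lists the members fell toward the extremes. The stretch was kept in all 7 in 116 members (21.0%) and in none in 160 (29.0%). Of members with a protein-coding start 34 of 65 (52.3%) were kept in all 7 and 6 (9.23%) in none, against 82 (16.8%) and 154 (31.6%) of the 487 without. Shares over all 7 lists were not counted for other H3K4me3 domains, so neither pattern can be called particular to members. Among domains not touched by Uhrf1 a start likewise went with keeping. In KO mESC 89.2% of those with a start were overlapped and 48.5% of those without. Of members with WT H3K27me3 43.9% of 376 were kept in KO mESC, against 64.2% of the 176 without it (difference -20.3 points, -28.65 to -11.4). Of the 278 members kept in KO mESC 32 were kept in no EB list, and 114 members missing there were kept in at least 1 EB list. In EBs the genotypes shared most members: at week 1, 144 were kept in both, 56 in WT only and 23 in KO only. At week 3, 233 were kept in both, 28 in WT only and 54 in KO only. The genotype with more members thus differed between weeks 1 and 3. The same change of order was seen over all WT mESC H3K4me3 domains. Of these, 76.4% were overlapped in WT and 69.2% in KO at week 1, and 86.1% and 88.9% at week 3. It was therefore not particular to members, and with 1 library each it cannot be set against replicate spread. Domains shared by both genotypes were not counted over all domains.

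**Figure D3:**
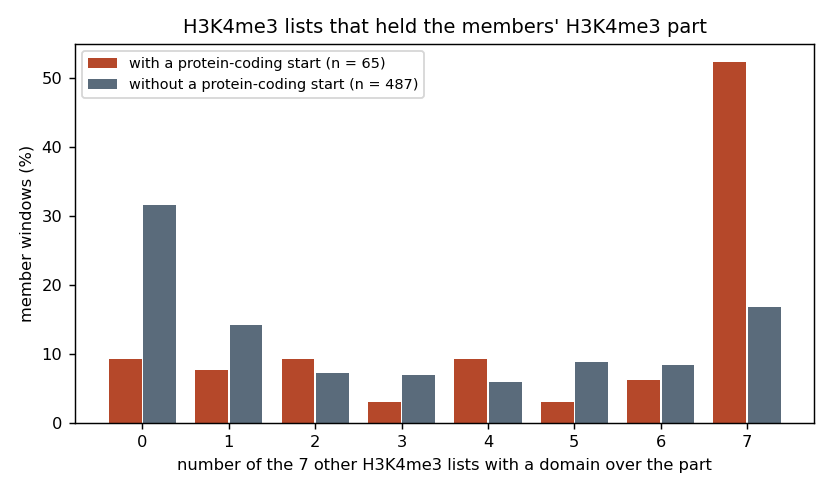
Share of member windows (y axis, percent) by the number of the 7 other H3K4me3 lists with a domain over their H3K4me3 stretch (x axis), for members with (red) and without (grey) a protein-coding start. Members with a start pile up at 7 lists (52.3%) and members without one at 0 (31.6%).

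The length of the WT domain went with the same pattern. Members under domains of 1.3 to 3.9 kb were kept in KO mESC in 23.5% of 102 cases, and those under domains of over 3.9 to 26 kb in 47.2% of 288. Under domains of over 26 to under 100 kb the share was 68.1% of 135, and under domains of 100 kb or more it was 96.3% of 27. The share kept in none of the 7 lists was 57.8%, 30.2%, 9.63% and 3.70% in the same order. A longer domain usually leaves a longer stretch in the window, so the overlap rule itself favours this order. The classes were set after the data were seen.

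**Figure D4:**
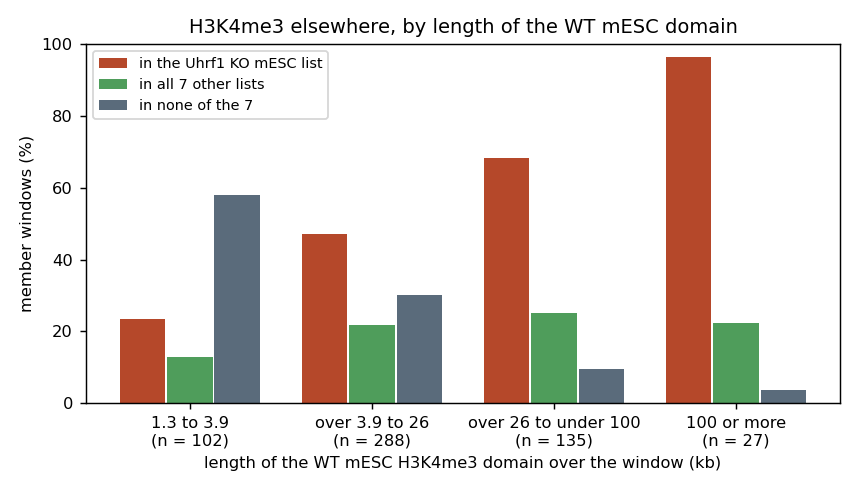
Share of member windows (y axis, percent) whose H3K4me3 stretch had a domain in the KO mESC list (red), in all 7 other lists (green) or in none (grey), by the length of the WT mESC domain in kb (x axis). From the shortest to the longest class the red bars go from 23.5% to 96.3% and the grey bars from 57.8% to 3.70%.

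Among members without a gene start, the window chr8:73950001-73960000 lay under a domain of 253.5 kb with a domain score of 190.7, the highest among members, and held a summit in all 6 factor lists. Windows chr17:34030001-34040000 and chr3:96310001-96320000 lay under domains scored 163.7 and 146.4, chr4:155050001-155060000 under one scored 94.1 and chr11:121260001-121270000 under one scored 88.0. All 5 were kept in KO mESC, and the chromosome 11 window in that list alone.

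The genes kept in every list are taken first. B3galt4, a galactosyltransferase of ganglioside synthesis, lay under the same 163.7-scored domain at chr17:34080001-34090000, without H3K27me3 or H3K9me3. Bola1, a mitochondrial iron-sulfur protein, had a domain score of 111.6, and Nup43, a subunit of the nuclear pore, one of 21.8. The window shared by Smg6, an endonuclease of nonsense-mediated decay, and Srr, serine racemase, had a score of 20.0. Each was kept in all 7 lists. Mean counts per bin are not comparable between lists, because the bins differ, so levels are given as percentiles within each list. Nup43 stood at the 89.7th percentile in WT mESC and the 87.7th in KO mESC, and at the 64.1st and 59.3rd in WT and KO EBs of week 1. B3galt4 stood at the 45.5th and 53.5th in WT and KO mESC.

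Raet1c, a ligand of the activating receptor NKG2D on natural killer cells, was kept in all 7 lists and also carried H3K27me3 in all 8. Its H3K27me3 percentile was 99.8 in WT mESC and 98.7 in KO mESC, and its H3K4me3 percentiles were 74.3 and 58.4. H3K9me3 also covered its stretch, at percentile 98.1 in WT mESC and 96.1 in KO mESC. In this window 82.5% of sampled 32-base words occurred more than once in the genome, so its reads cannot be placed with confidence. Gm7347, on chromosome 5 with 97.5% such words, likewise carried H3K27me3 in all 8 lists, at the 99.9th percentile in WT mESC, but H3K4me3 was missing in KO mESC and in both week 1 lists.

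Uhrf2 lay in chr19:30100001-30110000 and was kept in all 7 lists. Its H3K4me3 percentile was 41.2 in WT mESC and 97.6 in KO mESC, and between 83.8 and 98.5 in the 6 EB lists, so the WT mESC list gave it the lowest rank of the 8. WT mESC H3K27me3 covered the stretch at the 79.3rd percentile, and no H3K27me3 domain was listed there in KO mESC. H3K9me3 covered the stretch in both mESC lists, at percentile 57.55 in WT and 38.1 in KO. The WT mESC H3K4me3 domain was 24700 bp long, against a list median of 9.1 kb, and a KO H3K4me3 domain lay over 72.0% of the stretch. A percentile ranks the mean count over a whole domain, so these ranks do not measure H3K4me3 at the Uhrf2 start itself.

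Other genes had no H3K4me3 over their stretch in KO mESC. Those named next all lay in windows with WT mESC H3K9me3, as did 79.3% of all members. Ifi203 and Mndal, interferon-inducible genes that shared a window, stood at the 1.43rd percentile in WT mESC, had no domain in KO mESC or at week 1, and were kept at weeks 2 and 3 in both genotypes. Olfr331, an odorant receptor, stood at the 6.34th percentile and was kept only in KO EBs of week 2, over 10.5% of the stretch. Its neighbour Olfr330 under the same domain was kept in KO mESC over 27% of the stretch and in KO EBs of week 1. Tex24, a testis-expressed gene, was kept only in WT EBs of weeks 2 and 3, over 4% and 28% of the stretch. Gm10545, in the protocadherin alpha cluster, was kept at weeks 2 and 3 in both genotypes. Words occurring more than once in the genome made up 72.5% of the Olfr331 window and 62.5% of the Ifi203 and Tex24 windows. They made up 32.5% of the Olfr330 window and 30% of the Gm10545 window. Reads in the first of these windows are thus also hard to place. By mean count the WT domains of Ifi203, Olfr331 and Tex24 (3.85th percentile) ranked low in their list. Their domain scores of 24.97, 21.1 and 20.0, which grow with length and chose these genes, were above the upper quartile of 11.3 for domains not touched by Uhrf1.

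Hoxd13 was the only developmental regulator. Its stretch in chr2:74500001-74510000 stood at the 1.81st percentile of the WT mESC H3K4me3 list, had no domain in KO mESC, and was kept in all 6 EB lists. At weeks 1, 2 and 3 it stood at the 2.84th, 28.5th and 22.9th percentile in WT and the 5.04th, 34.9th and 25.5th in KO. H3K27me3 covered the whole stretch in all 8 lists, at the 94.2nd percentile in WT mESC and the 69.5th in KO mESC. By H3K4me3 and H3K27me3 the Hoxd13 promoter was therefore listed as bivalent in WT mESC, as H3K27me3 without H3K4me3 in KO mESC and as bivalent in every EB list. An H3K9me3 domain also covered the whole stretch in both mESC lists, at percentile 49.15 in WT and 29.25 in KO.

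The promoters of all 73 genes were classed by H3K4me3 within 2 kb and H3K27me3 within 5 kb of the start. In WT mESC 47 were bivalent (64.4%, 52.9 to 74.4, against 18.3% of all protein-coding genes), 19 had H3K4me3 alone (26.03% against 44.8%), 3 H3K27me3 alone and 4 neither. H3K4me3 near these starts follows from the rule in most cases, so the part that the rule did not fix is the H3K27me3. The WT mESC H3K27me3 list was broad (959.7 Mb), and by the same distances Pou5f1 and Sox2 were bivalent in WT mESC too. In KO mESC 35 of the 73 had H3K4me3 alone, 5 were bivalent (6.85% against 4.29%), 7 had H3K27me3 alone and 26 neither. Of the 47 bivalent promoters, 19 had H3K4me3 alone in KO mESC (40.4%, against 60.5% of all 4100 bivalent promoters) and 17 had neither mark (36.2% against 19.05%). H2-Q6 and Raet1d, both immune ligands, and Nat8l, which makes N-acetylaspartate, were among the 5 that stayed bivalent. In EBs of week 3, 29 were bivalent in WT and 21 in KO (39.7% and 28.8%, against 19.5% and 11.3% of all genes).

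**Figure D5:**
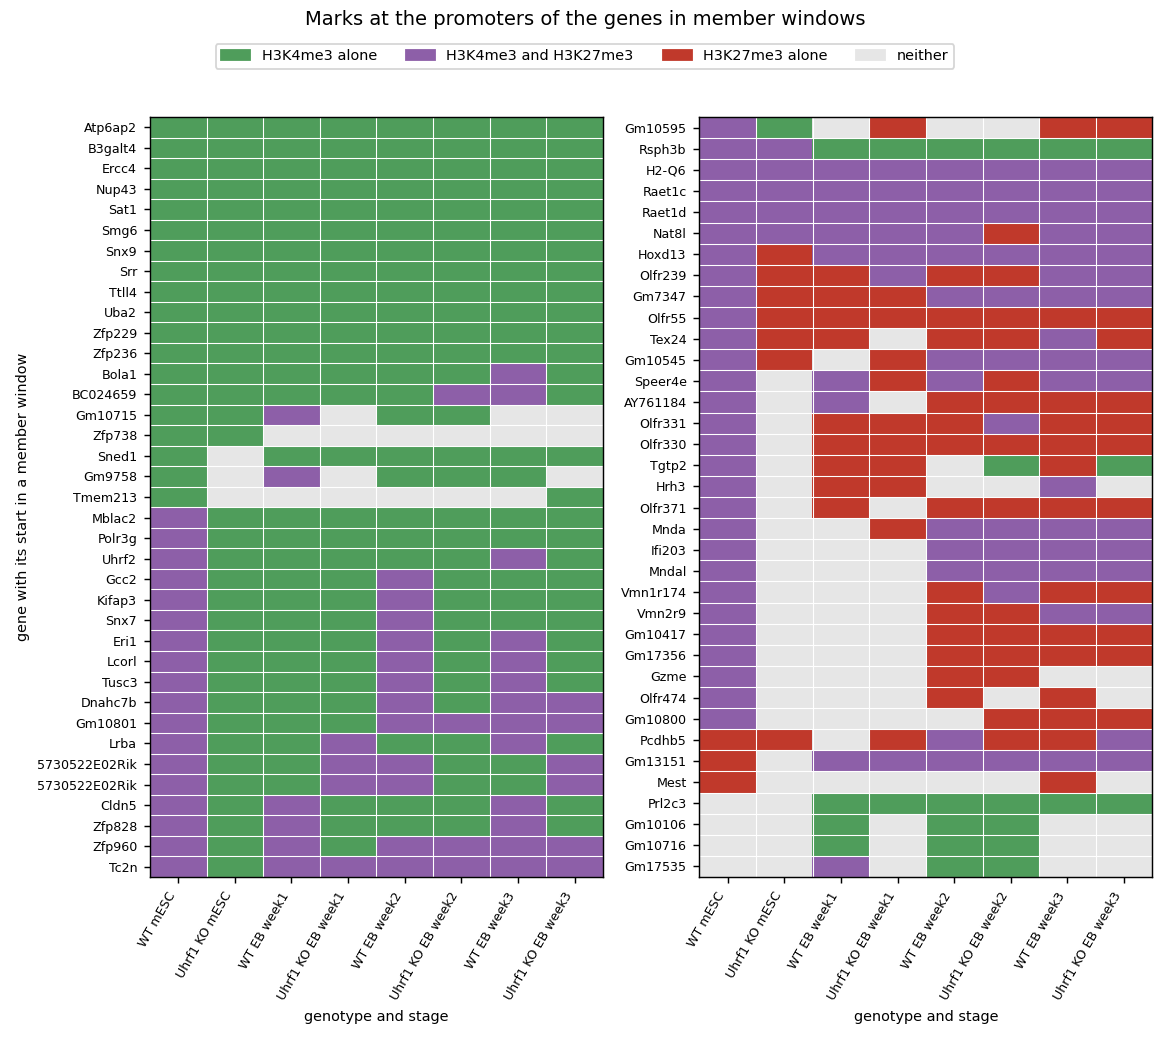
Marks at the promoters of the 73 genes with their start in a member (rows) in each genotype and stage (columns), with H3K4me3 alone in green, both marks in purple, H3K27me3 alone in red and neither in grey. In the WT mESC column 47 promoters are purple, and in the KO mESC column 5 are.

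Promoter H3K4me3 was kept less often at these genes than at other genes. The difference was larger at promoters with few CpG and at those with WT H3K27me3, in groups that were chosen after the data were seen. Of 66 member promoters with WT mESC H3K4me3, 40 had it in KO mESC (60.6%), against 88.1% of 14064 other promoters (difference -27.5 points, -39.6 to -16.6). In WT EBs of week 1 it was present at 65.2% against 92.5% (difference -27.4 points, -39.4 to -17.0), close to the difference in KO mESC. Among promoters with 10 or more CpG in the 250 bases before the start, 25 of 29 member promoters and 91.6% of the others had it in KO mESC (difference -5.41 points, -22.2 to 2.90). Among those with fewer, 15 of 37 (40.5%) and 80.0% had it (difference -39.5 points, -53.7 to -23.5). Of promoters with WT H3K27me3, 24 of 47 in members and 75.4% of the others had H3K4me3 in KO mESC (difference -24.4 points, -38.2 to -10.6). Of promoters without WT H3K27me3, 16 of 19 and 93.2% did (difference -9.03 points, -30.8 to 1.255). The CpG and H3K27me3 groupings were not combined. The sequences printed above show both kinds, with Ifi203, Olfr331 and Tex24 almost free of CpG.

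Of genes whose start lay inside the stretch, those with a KO mESC domain over it had a median of 14 CpG (n = 39) and those without had 1 (n = 20). At least 10 CpG were found in 61.5% and 20.0%, against 46.8% of all genes. The exceptions without a KO mESC domain were Hrh3, a histamine receptor, with 32 CpG, Hoxd13 with 31, Sned1 with 15 and Gm10545 with 14.

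Over whole windows the base composition of members was close to that of other Uhrf1 windows. The median ratio of observed to expected CpG was 0.1998 in members and 0.168 in other windows, and the median GC content was 41.0% and 40.3%. Touched domains were poorer in CpG than other H3K4me3 domains, at 0.238 against 0.297, with a GC content of 41.6% against 45.9%. Repeated sequence set them apart more: a median of 32.5% of sampled 32-base words occurred more than once in the genome in touched domains, against 5% in other domains. In member windows the median was 60% and in other Uhrf1 windows 67.5%. With 1 position kept per read, signal over such words can come from another copy. Within 5 groups of this share, a comparison chosen after the data were seen, the retention difference between touched and other domains in KO mESC was -10.1 points (-14.7 to -5.39), against -13.3 without groups. Of members with over 50% repeated words 51.2% of 342 were kept in KO mESC, against 49.0% of the other 210 (difference 2.12 points, -6.42 to 10.6).

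A small group of members was called in every histone list. In 28 members (5.07%), from 16 domains, a domain was listed in each of the 17 other histone lists, whatever the mark, genotype or stage. Of the 13092 other windows 1 was so listed, a count that the rule largely fixed. Those windows lacked WT mESC H3K4me3 by selection, and only 74 of them (0.565%) had H3K4me3 in KO mESC. H3K4me3 domains not touched by Uhrf1 were not counted in this way. Chromosome 4 held 10 of the 28 members, chromosome 13 held 9, chromosome 8 held 4 and chromosome 17 held 3. They held 15 of the 36 KO Oct4 summits found in members, and 26 were kept in all 7 H3K4me3 lists. Their median share of repeated words was 63.8%, near the 60% of all members, and their median WT H3K4me3 mean count was 16.9 reads per bin against 11.9. Separately, 16 members had a mean count over 40, the highest at Gm10801 on chromosome 2 with 163.7 reads per bin, then chr13:66810001-66820000 with 113.6 and Gm10715 on chromosome 9 with 109.2, where the highest of any domain not touched by Uhrf1 was 77.1. The part of repeated sequence in these calls was not tested.

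The pluripotency factors Oct4, Sox2 and Nanog bind together at enhancers of stem cells, and the study asked whether their sites move without Uhrf1. In WT mESC an Oct4 summit lay in 100 members (18.1%, 15.1 to 21.6) against 9.02% of other Uhrf1 windows (difference 9.09 points, 6.06 to 12.6). Sox2 lay in 66 (11.96% against 1.12%) and Nanog in 26 (4.71% against 0.405%). In KO mESC Oct4 lay in 21 (3.804% against 0.344%), Sox2 in 123 (22.3% against 3.89%) and Nanog in 55 (9.96% against 1.83%). Oct4 was thus listed in fewer members in KO than in WT, and Sox2 and Nanog in more. The whole lists moved in the same directions, with 576 KO against 12898 WT Oct4 summits, 20755 against 5190 for Sox2 and 10632 against 2390 for Nanog. In 365 members no list held a summit, and in 8 all 6 lists did.

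Against other H3K4me3 domains the touched ones held factor summits at shares that differed less. Oct4 lay in 24.5% of touched and 21.6% of other domains (difference 2.88 points, -0.913 to 7.10) and Sox2 in 15.9% and 14.5% (1.42 points, -1.71 to 5.11). KO Sox2 lay in 37.1% and 47.3% (-10.3 points, -14.7 to -5.64), and KO Oct4 in 3.53% and 0.850% (2.68 points, 1.33 to 4.81). Of the 6 factor lists KO Oct4 was the only one whose share was higher in touched domains by more than the counting interval.

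The fate of the 118 WT Oct4 summits in members was read from KO summits within 100 bp. A KO Oct4 summit was present at 9 (7.63%, 4.06 to 13.9), against 1.15% of the 1305 summits in other Uhrf1 windows and 1.92% of 11475 outside Uhrf1 windows. At 27 (22.9%) Oct4 was absent in KO and a Sox2 or Nanog summit not seen in WT stood in its place, against 16.9% and 38.5%. At 67 (56.8%) no factor was left, against 78.8% and 44.3%, and at the remaining 15 Sox2 or Nanog was present in both genotypes. Members held 36 of the 576 KO Oct4 summits (6.25%) but 0.915% of WT Oct4 summits. These 36 lay in 21 windows under 16 domains, with 8 in the chromosome 11 locus and 4 in the chromosome 5 locus named above. The 21 windows had a median WT H3K4me3 mean count of 28.2 reads per bin, against 11.9 in all members. Their median share of repeated words was 77.5%, against 60%. The KO Oct4 share therefore came from few windows and does not describe members in general.

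Of the 5 tallest WT Oct4 summits in members 4 are described. Their heights are reads not scaled for depth here, so WT and KO heights do not measure a change in binding. The tallest, at base 66812127 of chromosome 13, had 159 reads in WT and 56 in KO. The pair on chromosome 4 had 153 and 146 Oct4 reads in WT and 25 each in KO. The last, 1397 bp from the Uhrf2 start on chromosome 19, had 107 Oct4 reads and 35 Sox2 reads in WT, and in KO no Oct4 summit but 54 Sox2 and 52 Nanog reads. It was the only one of the 4 without KO Oct4 and the only one under the H3K4me3 stretch of its window. The other 3 lay outside the stretch. Repeated words made up 7.50% of its window, against 95%, 80% and 82.5% in the other 3. The octamer was absent from 100 bp either side of all 4, and it was found at 5 of 118 summits in members (4.24%, 1.82 to 9.54), at 6.05% in other Uhrf1 windows and at 10.8% outside them.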

How the data were processed

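ChIP-seq regions of 25 libraries were used, 1 library per group, with groups taken from GEO's labels. The authors mapped reads to mm9 with Bowtie2 2.1.0, keeping 1 position per read, called histone domains with RSEG against input and factor summits with MACS, and took Uhrf1 windows by enrichment over input. The deposited histone lists give each domain a signal (reads per bin, averaged) and a score, and the factor lists give a signal in reads at the summit. The deposited Uhrf1 list holds no score.

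Overlaps (at least 1 bp), promoter classes and summit distances (100 bp) were computed with Python 3.11.15, numpy 2.4.6, pandas 2.3.3 and scipy 1.17.1, and figures with matplotlib 3.10.9. Genes and sequence came from GENCODE and NCBIM37, in which 0 regions passed a chromosome end and 575 of 318036 lay on names not in the genome. Repeated sequence was read from 40 words of 32 bases per region. Shares have Wilson and differences Newcombe 95% intervals. The overlap code was tested on simulated data.

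Members and gene lists were chosen with earlier results of these data known. Named items were the 12 genes of highest domain score under H3K4me3, the 5 highest members without a gene start, the 5 runs with most members, the 5 tallest Oct4 summits, the 6 highest genes lost in KO mESC and the 6 kept in all lists, every listed gene, and the 3 windows nearest each side of the rule. H2-Q6, Raet1d, Nat8l, Hrh3, Sned1, Gm10801 and Gm10715 were added after their values were seen. One Oct4 summit of the 5 is not reported here. Alternatives changed the overlap, the score or height, the unit and the chromosomes.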

Additional observations from a re-analysis of the deposited data

How the results depend on the processing

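Of 94 alternatives over 18 results, 9 of them chosen after seeing the data, 62 stayed within the reported interval, 32 left it and 0 changed sign. The share of Uhrf1 windows touching H3K4me3 (4.05%) was 1.80% when a domain midpoint had to lie in the window, 2.17% with domains above the median score, 5.12% over joined runs and 4.73% on autosomes. Members with a protein-coding start (11.8%) became 20.8% with any gene and 15.8% within 2 kb of the covered stretch. Requiring 50% coverage gave 63.0% for H3K27me3 and 72.1% for H3K9me3, and domains above the median score gave 51.1% and 63.4%. For H3K4me3 kept over 50% of the stretch the shares were 43.5% in KO mESC, 23.4%, 31.9% and 33.7% in WT EBs and 16.5%, 26.4% and 32.4% in KO EBs of weeks 1, 2 and 3. With domains above the median score they were 30.4%, then 21.7%, 38.0% and 34.4%, then 20.1%, 32.6% and 37.3%. The retention difference in KO mESC (-13.3 points) was -0.262 with a protein-coding start, -28.7 for domains with their midpoint in a Uhrf1 window and -2.73 with H3K9me3 and no protein-coding start. Only summits above the median height gave 6.52% for WT Oct4, 3.99% for WT Sox2, 9.24% for KO Sox2 and 4.71% for KO Nanog, and WT Sox2 was 9.35% without the 28 windows called in every histone list. Beyond what the alternatives' own construction fixes (stricter overlap, fewer domains), the cause was not tested.

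No paired analysis was possible because each group held 1 library and the labels give no shared replicate numbers, and no replicate was left out. Read depth was not used here, which limits how a region missing from a list is read.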
